A study of Homo sapiens with 14 samples.

Results

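OVCAR-3 cells are a long-established line from a human ovarian carcinoma, and they carry extra copies of CCNE1, the gene of cyclin E1. Cyclin E1 binds and activates CDK2, a kinase that drives entry into DNA synthesis, and PHA-533533 is a small-molecule inhibitor of CDK2. The comparison described here sets 5 resistant OVCAR-3 sublines, growing in 4 µM PHA-533533 at passage 5, against 4 samples of parental OVCAR-3 cells grown in medium alone. The 9 arrays of this comparison were chosen by the sample titles, out of 14 arrays in the series, and all 18398 genes named by a single-gene row of the array annotation were measured on each. The sublines are numbered 1, 3, 5, 6 and 7 and are called selected here. The remaining 5 arrays are of the same sublines at passage 10 or later in 0 µM, called stable here, and serve only to show which differences were smaller after withdrawal. Whether a subline was derived from a single cell is not stated in the labels, and inhibitor, resistance and passage were all on one side of the comparison and cannot be told apart.

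The deposited values are log2 signals, so a difference of 1 is a doubling of signal. The labels do not state whether separate cultures gave the 4 parental samples. P-values therefore weigh differences only against the spread of these samples, part or all of which may be technical. A gene was called when its adjusted p lay under 0.05 by limma after Benjamini-Hochberg adjustment over the 18398 genes, and all adjusted p-values below are of this kind. Precision is limited by how few arrays there are. Olfactory receptor genes, silent in most tissues, served as a gauge of background: their mean was 6.43 ± 0.224 (SD, n = 4) in parental and 6.35 ± 0.212 (SD, n = 5) in selected arrays (two-sided exact permutation p = 0.571). Among single arrays this mean was highest in parental replicate 3, at 6.72, and lowest in the selected array of subline 1, at 6.06. A gene whose parental and selected means both lay under 7.70, the 95th percentile of the 360 olfactory receptor genes, is said below to lie near background. In a further 78 genes called higher only the parental mean, and in 27 called lower only the selected mean, lay under that level. Among those named below this holds for the rises of AKR1C2, ATG4A, B4GALT6, CDKN1A, IFI44L, ITGA2, JAK2, LIFR, MANBA, MGAT4A, RRAGB, SAMD9, SNORD14E, TLR3, ZNF136 and ZNF211 and the falls of CXCL8, GREM1, SEMA3C, SNORD116-20 and SNORD116-24.

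The label of the cells was checked against their defining markers. In both groups the lineage factors PAX8 (means 11.97 parental and 11.77 selected), WT1 (9.24 and 9.27) and SOX17 (9.65 and 9.91) and the keratin KRT7 (12.78 and 12.86) were well above background, while the hormone receptors ESR1 and PGR were near it. Of 20 measured genes of the serous ovarian and Muellerian lineage 1 was called higher (5%) and 0 lower. The differences in that list ran from -0.88 to 0.56. The lowest was that of a mucin and was not called. The defining leukocyte marker PTPRC (5.35 and 5.34), the endothelial marker PECAM1 (6.85 and 6.94) and the fibroblast markers DCN (5.33 and 5.29) and LUM (4.90 and 4.93) lay near background. Of 10 fibroblast, 11 leukocyte and 10 endothelial markers none was called. Of 8 mesothelial markers KRT5 alone was, a rise of 1.26 whose call was lost in 3 of 19 alternative settings. Near background lay 8 of the fibroblast, 8 of the leukocyte, 8 of the endothelial and 4 of the mesothelial markers, and the others lay above it. Of the 24 mesenchymal genes none was called, and of 33 epithelial genes 3 were higher, SPINT1, ELF3 and PKP2. PKP2 lost its call in 14 of 19 alternative settings.

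In selected cells 926 genes were called higher, 5.03% of the 18398, and 347 lower, 1.89%, or 6.92% either way. The median difference was 0.49 among the genes called higher, -0.46 among those called lower and -0.01 over all genes. Of the 1273 called differences 894 (70.2%) were under 1.5-fold, and 44 were at least 1 on the log2 scale. All 5 selected arrays lay above all 4 parental arrays in 1253 genes, 6.81%, and below them in 544, 2.96%. After quantile normalization of the arrays the split of called genes became 980 higher and 720 lower. Without parental replicate 3 it was 487 and 375. Leaving out parental replicate 1 or 4 lowered the number of called genes to 735 or 517, and leaving out subline 3 or 7 lowered it to 818 or 621. Genes were grouped into 109 lists of pathways and families, and the share of each list's measured members called higher or lower is read below against 5.03% and 1.89%. Of the 10936 genes above background 7.56% were called higher and 2.79% lower. Lists with few members near background are better read against these shares. The counts called in the lists are sensitive to single arrays: of the 44 lists with 3 or more genes called in 1 direction, the count of 36 moved by over 1.5 times when some array was left out.

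**Figure D1:**
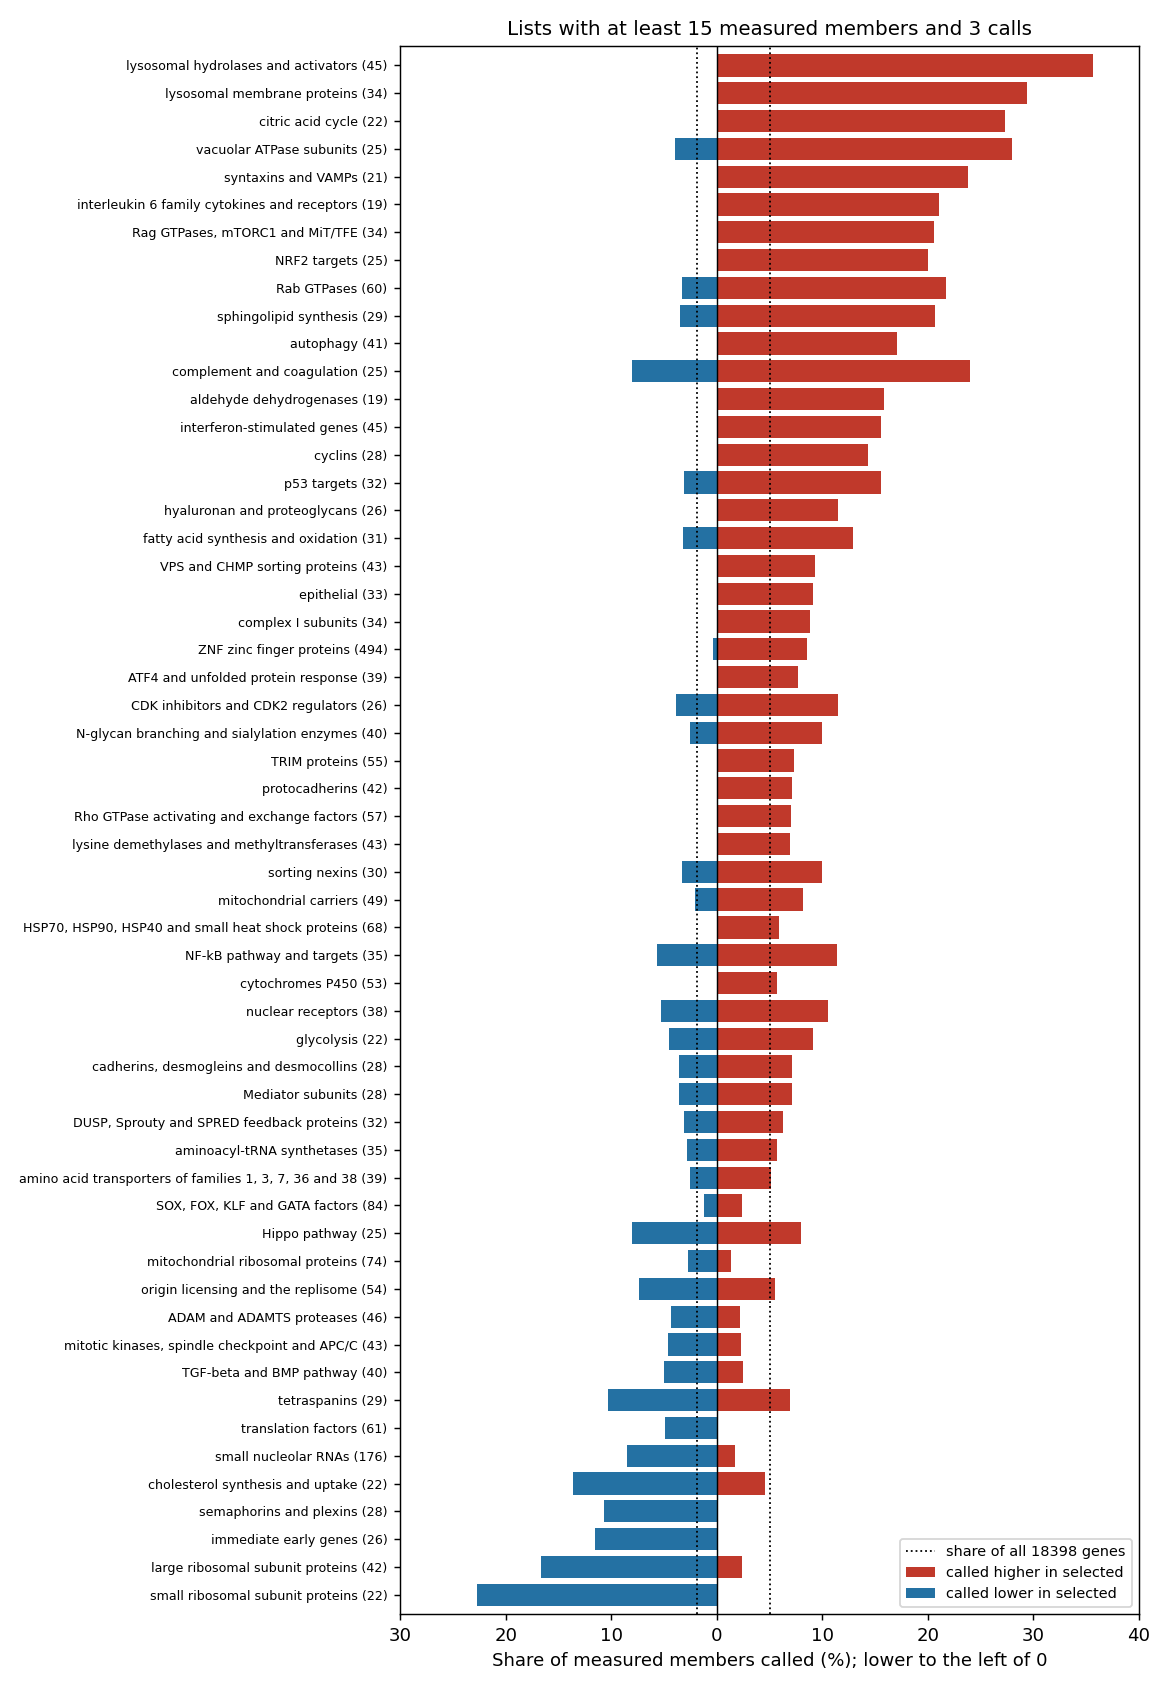
Share of measured members called higher (red, to the right) or lower (blue, to the left) in selected against parental cells, for every list with at least 15 measured members and 3 called genes. Numbers in brackets are measured members, and dotted lines are the shares over all genes, 5.03% and 1.89%. The lists with the largest shares called higher are lysosomal hydrolases (35.6%), lysosomal membrane proteins (29.4%) and vacuolar ATPase subunits (28%), and the 2 lists of ribosomal proteins of the cytosol lie at the other end.

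Lysosomes are the acid compartments in which cells degrade proteins, lipids and glycans. The vacuolar ATPase pumps protons into them, membrane proteins such as LAMP1 and LAMP2 line them, and the transcription factor TFEB and its relatives are known to activate many lysosomal genes through the CLEAR element, whose core is the E-box CACGTG. Of the 45 measured lysosomal hydrolases and their activators 16 rose and 0 fell (35.6% called higher), of 34 membrane proteins 10 rose and 0 fell (29.4%), and of 25 vacuolar ATPase subunits 7 rose and 1 fell (28%). The median difference was 0.21, 0.20 and 0.24 in these 3 lists. All selected arrays lay above all parental arrays for 14 hydrolases, 11 membrane proteins and 8 ATPase subunits.

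CTSL, a cysteine protease, measured 7.95, 7.94, 7.89 and 7.87 in the parental replicates and 8.56, 8.69, 8.45, 8.47 and 8.79 in sublines 1, 3, 5, 6 and 7. The groups did not overlap, and the rise was 0.68 (SE 0.08, adjusted p = 0.00127). FUCA1, which removes fucose from glycans, measured 8.16, 8.06, 7.91 and 7.92 in parental and 8.88, 8.78, 8.57, 8.78 and 9.06 in selected arrays. Its rise of 0.80 (SE 0.10, adjusted p = 0.00148) was again the smallest in subline 5. CTSD, an aspartic protease, rose by 0.53, the ganglioside activator GM2A by 0.64 and the asparaginyl protease LGMN by 0.59. The glycosidases GLB1 and MANBA rose by 0.59 and 0.60, HGSNAT, which acetylates heparan sulfate, by 0.52, and the lipid-degrading LIPA, SMPD1 and ASAH1 by 0.48, 0.55 and 0.36.

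Among the membrane proteins, GPNMB measured 8.98, 9.55, 9.51 and 9.33 in parental and 10.06, 10.87, 10.22, 10.76 and 10.86 in selected arrays, a rise of 1.21 (SE 0.18, adjusted p = 0.00384). SCARB2, the receptor that brings glucocerebrosidase to the lysosome, rose by 0.63, LAMP2 by 0.51, the cholesterol exporter NPC1 by 0.55, the sialic acid exporter SLC17A5 by 0.35 and the cation channel MCOLN3 by 0.45. LAMP1 rose by 0.38, although the arrays of its groups overlapped. In the proton pump most of the called rises lay in the membrane sector. ATP6V1A alone was called in the other sector, and its call was lost in 3 of 19 alternative settings. ATP6V0E1 of the membrane sector measured 12.45, 12.38, 12.37 and 12.25 in parental and 12.80, 12.91, 12.74, 12.76 and 12.90 in selected arrays (difference 0.46, SE 0.07, adjusted p = 0.00439), and ATP6V0A2, ATP6V0B and ATP6V0E2 of that sector rose by 0.48, 0.44 and 0.44. ATP6V1A, the catalytic subunit, rose by 0.39 and the accessory subunits ATP6AP1 and ATP6AP2 by 0.40 and 0.55. ATP6V0D2, a tissue-restricted subunit, fell by 0.65 at a signal near background.

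**Figure D2:**
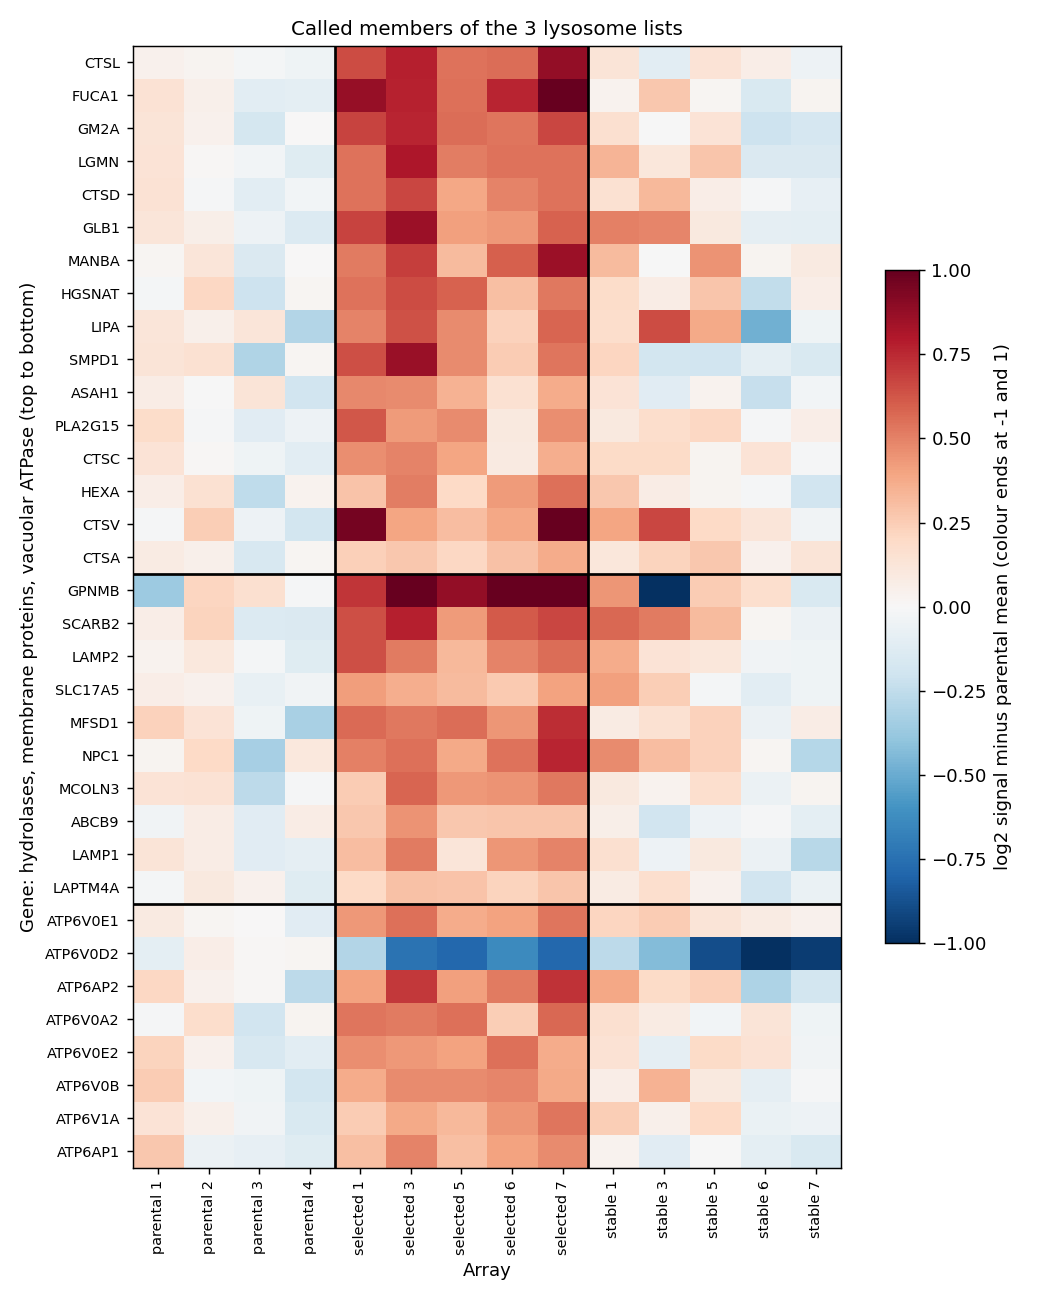
Called members of the lysosomal hydrolase, membrane protein and vacuolar ATPase lists (top to bottom, divided by lines) on the 14 arrays, coloured by log2 signal minus the parental mean. Parental arrays are on the left, selected in the middle and stable on the right. ATP6V0D2 alone is blue across the selected arrays, and in most other genes the stable arrays, above all those of sublines 6 and 7, are paler than the selected ones.

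When single arrays were left out, 8 to 14 hydrolases were called higher (8 without parental replicate 4, or without the selected array of subline 3 or 7), 6 to 10 membrane proteins (6 without the same arrays) and 3 to 9 ATPase subunits (3 without parental replicate 4). The medians of these lists differed between arrays of 1 group. Relative to the parental mean, the median hydrolase lay at 0.20, 0.26, 0.12, 0.15 and 0.28 in selected sublines 1, 3, 5, 6 and 7 and at 0.07, 0.05, -0.10 and 0.00 in parental replicates 1 to 4. The olfactory receptor mean was highest in parental replicate 3 and, among selected arrays, in sublines 5 and 6. With that mean as a covariate 16 hydrolases were higher and 1 lower, 14 and 1 of the membrane proteins, and 11 and 1 of the ATPase subunits. Against the stable arrays of the same sublines, where 2.16% of all genes were called (with subline as a block the calls rose from 397 to 906 genes), 8 hydrolases, 6 membrane proteins and 5 ATPase subunits were higher in selected cells and 0 were lower.

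The CACGTG core was searched in the 250 bases before the start of each gene in RefSeq promoters (GRCh38.p14). The core reads the same on both strands. It occurred in 7.87% of the 14225 promoters matched to measured genes and in 19 of the 76 matched promoters of the 3 lysosome lists (25%). Among the members called higher it occurred in 6 of 25 (24%) and among the others in 13 of 51 (25.5%). The windows of the called members that hold it follow, with the core in capitals, to show where it lies in them, each given 5′ to 3′ on the strand of its gene.
ATP6V0B (chr1:43974873-43974938, plus strand): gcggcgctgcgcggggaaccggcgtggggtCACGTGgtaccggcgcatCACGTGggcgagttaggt
ATP6V0E2 (chr7:149872866-149872931, plus strand): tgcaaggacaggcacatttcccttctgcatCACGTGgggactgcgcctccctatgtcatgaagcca
CTSA (chr20:45891263-45891328, plus strand): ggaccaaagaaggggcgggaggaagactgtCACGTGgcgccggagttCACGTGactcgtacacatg
CTSD (chr11:1763939-1764004, minus strand): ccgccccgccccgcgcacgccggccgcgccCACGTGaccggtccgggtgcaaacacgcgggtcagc
LAMP1 (chr13:113297017-113297082, plus strand): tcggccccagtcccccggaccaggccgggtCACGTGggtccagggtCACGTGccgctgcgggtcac
MFSD1 (chr3:158802009-158802053, plus strand): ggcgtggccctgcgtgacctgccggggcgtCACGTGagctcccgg
ATP6V0B, CTSA and LAMP1 hold the core at 2 places in these windows. CTSA, a serine carboxypeptidase, rose by 0.27 and MFSD1, a lysosomal transporter, by 0.57. Promoters with the core also belong to members that were not called, such as CLCN7 at 0.39 (adjusted p = 0.118), MCOLN1 at 0.34 (adjusted p = 0.0516) and GAA at -0.07 (adjusted p = 0.819). A match is a description of these letters and does not show that a factor binds there.

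Nutrient sensing takes place on the lysosomal surface, where Rag GTPases recruit the growth kinase mTORC1. Of 34 genes of the Rag, mTORC1 and MiT/TFE list 7 rose and 0 fell (20.6% called higher). RRAGD varied most between sublines: it measured 7.87, 8.04, 7.79 and 7.72 in parental and 9.19, 8.53, 8.47, 10.06 and 9.98 in selected arrays. All selected arrays were higher, with sublines 6 and 7 well above sublines 3 and 5 (difference 1.39, SE 0.31, adjusted p = 0.0211). Its call was lost without parental replicate 1, 3 or 4 or the selected array of subline 7, with an adjusted p of up to 0.0723. RRAGB and RRAGC rose by 0.54 and 0.55, LAMTOR3, a subunit of the Rag anchor, by 0.72, and the folliculin partner FNIP2 by 0.59. SESN1 and SESN3, stress-induced inhibitors of mTORC1, rose by 0.49 and 0.93, the former near background. Without parental replicate 1, 3 or 4, 4 genes of this list were called in place of 7.

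Autophagy delivers cell contents to lysosomes. Of 41 autophagy genes 7 rose and 0 fell (17.1%), among them the initiating kinase ULK2 (0.64), the ATG8 protease ATG4A (0.95), the phosphoinositide effector WIPI1 (0.51) and the lipid transfer and scramblase proteins ATG2B and ATG9A (0.51 and 0.50). ATG4A measured 7.76, 7.84, 7.28 and 7.43 in parental and 8.69, 8.64, 8.19, 8.32 and 8.79 in selected arrays, with no overlap. With single arrays left out, 5 to 10 autophagy genes were called higher.

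Rab GTPases give membranes their identity, and syntaxins and VAMPs are SNARE proteins that fuse them. Of 60 Rab genes 13 rose and 2 fell (21.7% and 3.33%), with a median difference of 0.14. With single arrays left out 5 to 15 were called higher, the fewest without parental replicate 4. RAB23, known from ciliary traffic, measured 9.32, 9.50, 9.14 and 9.11 in parental and 10.60, 10.38, 10.03, 10.03 and 10.31 in selected arrays. Its rise of 1.0 (SE 0.13, adjusted p = 0.00157) was the largest of the family. The other called Rabs span several compartments: RAB38 (0.57), RAB32 (0.39) and RAB27B (0.73, near background) serve lysosome-related organelles, RAB21 (0.56), RAB5C (0.32) and RAB11A (0.29) endosomes, and RAB6A (0.50) and RAB18 (0.61) the Golgi, the endoplasmic reticulum and lipid droplets. The calls of RAB11A, RAB32 and RAB5C were lost in 12, 10 and 9 of 19 alternative settings. RAB24 fell by 0.42. Of 21 syntaxins and VAMPs 5 rose and 0 fell (23.8%), with the highest median of these vesicle lists, 0.27. VAMP4, a SNARE of the Golgi and endosomes, measured 8.06, 8.18, 7.98 and 7.79 in parental and 9.03, 8.68, 8.33, 8.78 and 9.0 in selected arrays (difference 0.76, SE 0.14, adjusted p = 0.00817). STX12, VAMP1, STX3 and VAMP3 rose by 0.44, 0.36, 0.36 and 0.32. VAMP3 lost its call in 10 of 19 alternative settings. Without parental replicate 3 or the selected array of subline 7, 2 SNARE genes were called higher.

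In other membrane-traffic families, none of the 24 coat and SEC proteins of the early secretory route was called. Of 43 VPS and CHMP proteins 4 rose and 0 fell (9.3%), and of 30 sorting nexins 3 rose and 1 fell (10% called higher). With single arrays left out these counts of higher calls ranged from 1 to 5 and from 0 to 4, the fewest without parental replicate 4 and, for the nexins, also without the selected array of subline 7.

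Sphingolipids are built from ceramide, which lysosomal enzymes also release. Of 29 genes of sphingolipid synthesis 6 rose and 1 fell (20.7% and 3.45%), with a median difference of 0.19. B4GALT6, which makes lactosylceramide, measured 7.17, 7.51, 7.14 and 6.90 in parental and 8.70, 8.27, 8.11, 8.24 and 8.65 in selected arrays. The groups lay apart and the rise was 1.21 (SE 0.15, adjusted p = 0.00125). The ceramide desaturase DEGS1 rose by 0.90, the ceramide synthase CERS2 by 0.38, the ketosphinganine reductase KDSR by 0.32, and both measured sphingomyelin synthases, SGMS1 and SGMS2, by 0.61 and 0.81. The call of KDSR was lost in 10 of 19 alternative settings. ORMDL2, one of the proteins that hold back the first enzyme of the pathway, measured 11.16, 10.91, 10.82 and 10.71 in parental and 10.25, 9.35, 10.28, 10.15 and 10.39 in selected arrays, and fell by 0.82 (SE 0.19, adjusted p = 0.0236). Subline 3 was the lowest. The call of ORMDL2 was lost without parental replicate 1 or 4 (adjusted p of up to 0.073), and without parental replicate 4 the list had 4 genes higher.

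Other lipid genes moved singly. LPCAT3, which places polyunsaturated chains in phospholipids, rose by 1.26 (SE 0.13, adjusted p = 0.000823). In the cholesterol list 1 gene rose and 3 fell of 22. The 3 that fell were the master regulators SREBF1 (-0.60) and SREBF2 (-0.57) and the sterol reductase TM7SF2 (-0.48), whereas SC5D, a late enzyme of the pathway, rose by 0.64. The calls of SREBF1 and SREBF2 were lost without parental replicate 1, 2 or 4 or the selected array of subline 7, and that of SREBF1 also without subline 5 or 6 (adjusted p of up to 0.134 for SREBF1 and 0.0835 for SREBF2). Of 31 genes of fatty acid synthesis and oxidation 4 rose and 1 fell. The mitochondrial enzyme HADH measured 9.57, 9.71, 9.57 and 9.67 in parental and between 10.15 and 10.25 in selected arrays, a narrow rise of 0.57 (SE 0.07, adjusted p = 0.00113), and the desaturase FADS1 fell by 0.62.

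Glycans are trimmed and branched in the Golgi. FUT8, the enzyme that adds core fucose to N-glycans, had one of the smallest p-values of the comparison. It measured 10.44, 10.36, 10.37 and 10.16 in parental and 11.27, 11.26, 11.32, 11.10 and 11.19 in selected arrays (difference 0.90, SE 0.08, adjusted p = 0.000503). MGAT4A, which starts one of the N-glycan branches, measured 7.40, 7.45, 7.58 and 7.37 in parental and 8.69, 9.05, 8.27, 8.82 and 8.92 in selected arrays, a rise of 1.30. MGAT3, which adds the bisecting residue, fell by 0.49. The list of 40 branching and sialylation enzymes as a whole had 4 higher and 1 lower, with B4GALT6 counted in it too, and a median of -0.04.

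Of 22 genes measured in the citric acid cycle list, which also holds a cytosolic enzyme, 6 rose and 0 fell (27.3%), and the median was 0.17. IDH3A, the catalytic subunit of the NAD-dependent isocitrate dehydrogenase, measured 10.86, 10.78, 10.75 and 10.51 in parental and 11.21, 11.43, 11.45, 11.15 and 11.39 in selected arrays, a rise of 0.60 (SE 0.09, adjusted p = 0.00431). ACO1, the cytosolic aconitase that also binds iron-responsive RNA, rose by 0.65, SDHA and SDHD of succinate dehydrogenase by 0.33 and 0.43, SUCLG1 by 0.31 and DLST by 0.33. Without parental replicate 3 or 4, or the selected array of subline 1, 3 or 7, 3 of the cycle genes were called higher. In the respiratory chain 3 of 34 subunits rose in complex I (8.82%), 2 of 12 in complexes II and III (16.7%, median 0.15), 0 of 17 in complex IV and 1 of 19 in ATP synthase (5.26%), and none was called lower. Succinate dehydrogenase is complex II, so its genes are counted in the cycle too. Without parental replicate 4 no complex I subunit was called. Of 49 mitochondrial carriers 4 rose and 1 fell. That one, the oxoglutarate carrier SLC25A11, had the largest difference of the family, -0.90. In glycolysis PFKFB2, which sets the level of an activator of phosphofructokinase, rose by 0.88, PFKP by 0.37, and the hexokinase HK2 fell by 0.40. The calls of HK2 and PFKP were lost in 10 and 9 of 19 alternative settings.

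Stress and detoxification genes had calls in several lists, some of them at about the share over all genes. Of 25 targets of NRF2, the transcription factor of the antioxidant response, 5 rose and 0 fell (20%): AKR1C3 (0.55, near background), AKR1C2 (0.62), the glutathione reductase GSR (0.48), the cystine importer SLC7A11 (0.68) and NFE2L2 itself (0.54), the gene of NRF2. The 2 AKR1C genes are near-identical relatives, and their rows may share signal. SLC7A11 measured 9.70, 9.64, 9.30 and 9.35 in parental and 10.58, 10.20, 9.98, 9.75 and 10.40 in selected arrays, and its call was lost in 6 of 19 alternative settings. With single arrays left out 2 to 7 genes of the list were called higher, the fewest without parental replicate 4. The antioxidant response core TGACNNNGC, searched on both strands, occurred in 4 of 19 matched promoters of the list (21.1%), in 20 of 76 of the 3 lysosome lists (26.3%) and in 11.8% of all promoters. In the lysosome lists it occurred in 10 of 25 members called higher (40%) and in 10 of 51 others (19.6%). The motif counts were not tested against each other. Outside that list the glutathione transferase MGST3 rose by 0.71, while the 21 glutathione transferases had 2 higher, 0 lower and a median of -0.07. The aldehyde dehydrogenases ALDH9A1, ALDH3A2 and ALDH7A1 rose by 0.43, 0.37 and 0.44, 3 of 19 in their family (15.8%, median -0.03). ALDH7A1 lost its call in 10 of 19 alternative settings. Of 45 ABC transporters 1 rose (2.22%), the lysosomal ABCB9 (0.31), and of 10 metallothioneins none was called. Of 68 genes of the HSP70, HSP90, HSP40 and small heat shock families 4 rose (5.88%), near the 5.03% over all genes. HSPA4L, an HSP110-type chaperone, measured 9.45, 9.34, 9.23 and 9.05 in parental and 10.62, 10.49, 10.38, 10.24 and 10.55 in selected arrays, a rise of 1.19 (SE 0.10, adjusted p = 0.000501). Of 39 genes of ATF4 and the unfolded protein response 3 rose (7.69%), DNAJB9 (0.52), SEL1L (0.44) and GDF15 (0.93). GDF15 lost its call in 11 of 19 alternative settings, and ATF4 itself differed by -0.82 (adjusted p = 0.0762). Of 32 p53 targets 5 rose (15.6%), among them DDB2 (0.60), ZMAT3 (0.62) and the CDK inhibitor CDKN1A (0.59), and CYFIP2 fell by 0.59.

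Among the cyclins and kinases of the cell cycle, CCNA1 and CCNE2, both partners of CDK2, rose, and CDK6 and WEE1 fell. CCNE1 measured 10.89, 11.13, 10.77 and 10.98 in parental and 11.61, 11.07, 11.22, 11.61 and 11.43 in selected arrays. The groups overlapped, and its difference of 0.45 lay at the threshold (adjusted p = 0.0497), lost in 10 of 19 alternative settings. CDK2 differed by 0.33 (adjusted p = 0.0964) and was not called. Of 28 cyclins 4 rose and 0 fell (14.3%), and with single arrays left out 1 to 5 were called higher, 1 without parental replicate 4 and 2 without parental replicate 1 or 3 or the selected array of subline 7. CCNA1, a cyclin A best known from germ cells, measured 9.31, 9.56, 8.90 and 9.35 in parental and 10.15, 9.99, 10.69, 10.08 and 10.41 in selected arrays (difference 0.98, SE 0.16, adjusted p = 0.00474), and CCNE2 and CCND3 rose by 0.74 and 0.45. The call of CCNE2 was lost in 7 of 19 alternative settings, and that of CCNA1 in both fits of all 14 arrays. CDK6 fell by 0.73. WEE1, the kinase that restrains CDK1 and CDK2, fell by 0.74 in its brightest row, with differences of -0.24 and -0.41 in its others. Its groups overlapped, and its call was lost in 6 of 19 alternative settings, among them the average of its rows. CDK19, a kinase of the Mediator complex, rose by 0.57.

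The 54 genes of origin licensing and the replisome had calls both ways, 3 higher and 4 lower, with a median of 0.08. The lower calls depended on single arrays: 0 were left without parental replicate 1 or 2, 1 without parental replicate 4 or the selected array of subline 3 or 7, and 2 without parental replicate 3 or the selected array of subline 6. Primase was split, with PRIM2 higher (0.50) and PRIM1 lower (-0.60). DTL and MCM8 rose by 0.57 and 0.38, and the helicase, GINS and origin genes MCM7 (-0.46), GINS4 (-0.78) and ORC3 (-0.61) fell. E2F sites, TTTGGCGC or TTTCCCGC on either strand, occurred in 13 of 48 matched promoters of this list (27.1%) and in 2.62% of all promoters. Of 11 E2F and DP factors E2F1 alone was called, at 0.31. None of 21 condensin and cohesin subunits was called, 1 of 57 replication-dependent histones was, and of 43 mitotic kinases and checkpoint genes 1 rose (NEK2, 0.57) and 2 fell (AURKB, -0.50, and UBE2S, -0.33).

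Ribosomal proteins of the cytosol, the protein parts of the machine that makes protein, were called lower in both subunits. Of 42 proteins of the large subunit 7 fell and 1 rose (16.7% called lower), and of 22 of the small subunit 5 fell and 0 rose (22.7%). The medians were -0.14 and -0.15. All selected arrays lay below all parental arrays for 14 and 10 of them. RPS24 measured 10.75, 10.90, 10.39 and 10.96 in parental and 9.79, 9.53, 9.93, 9.54 and 9.97 in selected arrays, a difference of -1.0 (SE 0.13, adjusted p = 0.00204). RPL7A (-0.57), RPS27 (-0.41), RPL37A (-0.38) and RPS20 (-0.37) also fell, while RPL41 rose by 0.34. Without parental replicate 1, 3 proteins of the large subunit were called lower, and without parental replicate 4, 3 of the small. RPL13 fell by 0.55 in its brightest row, but averaging its rows gave -0.21, which was not called. Ribosomal protein genes have many processed copies, so rows may take signal from more than 1 locus.

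Elsewhere in the translation machinery, of 61 translation factors 3 fell and 0 rose (4.92% called lower, median -0.03), and all 3 were subunits of EIF3, which joins messenger RNA to the small ribosomal subunit. EIF3D measured 11.76, 11.69, 11.46 and 11.56 in parental and 11.34, 11.11, 11.18, 10.95 and 11.25 in selected arrays (difference -0.45, SE 0.09, adjusted p = 0.0166, and 0.0557 without parental replicate 1). EIF3L fell by 0.38 (adjusted p = 0.0504 without parental replicate 1), and EIF3E fell by 0.33, a call lost in 10 of 19 alternative settings. Without parental replicate 1 no translation factor was called lower. The 12 measured EIF3 subunits had a median of -0.07, and the other 49 factors, none of them called, one of 0.02. Mitochondrial ribosomal proteins had a median of 0.00, with 1 of 74 higher and 2 lower. No proteasome subunit of 43 and no CCT chaperonin subunit of 9 was called, with medians of 0.04 and -0.11. The nucleolar protein NCL was the single call among 33 ribosome biogenesis genes, at -0.40, and the median of that list was -0.10. Of 35 aminoacyl-tRNA synthetases, the mitochondrial enzymes VARS2 and IARS2 rose by 0.76 and 0.42 and the cytosolic LARS1 fell by 0.33.

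The largest falls of the comparison were in small nucleolar RNAs of the SNORD116 cluster. Small nucleolar RNAs guide the chemical modification of ribosomal and other RNAs, but SNORD116 belongs to the orphan class with no such target known, is processed from the introns of a long transcript of the imprinted Prader-Willi region of chromosome 15, and is present in many similar copies. Of 20 measured SNORD116 copies 8 were called, all lower, and of these 4 lay above background. SNORD116-14 measured 10.15, 10.13, 9.80 and 10.34 in parental and 7.28, 7.02, 7.96, 8.35 and 8.51 in selected arrays. The difference, -2.28 (SE 0.27, adjusted p = 0.00125), was the lowest of any called gene. SNORD116-15, the brightest copy, measured 11.31, 11.35, 11.11 and 11.58 in parental and 8.91, 8.84, 9.51, 10.17 and 9.81 in selected arrays, a difference of -1.89 (SE 0.24). SNORD116-24 (-2.09) and SNORD116-20 (-1.73) fell too. Sublines 1 and 3 were lowest in all 4 of these copies, and no selected array reached the lowest parental one. At signals near background SNORD116-21 (-1.30), SNORD116-1 (-0.91), SNORD116-6 (-0.68) and SNORD116-23 (-0.40) fell as well, the last with a call lost in 9 of 18 alternative settings. The copies resemble each other closely, so their rows are not independent of each other and may share signal.

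In the stable arrays SNORD116-14 measured 10.28, 10.05, 8.54, 9.84 and 9.43 in sublines 1, 3, 5, 6 and 7. Sublines 1 and 3, lowest under the inhibitor, were within the parental range, and subline 5 was the lowest. Selected minus stable, the 4 bright copies differed by -1.80 to -1.38 (adjusted p = 0.019 to 0.0309). These 4 copies kept their call against parental cells in all 19 alternative settings. The 20 measured copies of SNORD115, a neighbouring orphan family, all lay near background and none was called. Neighbouring genes were looked up after these values were seen. UBE3A (0.09), MKRN3 (0.03), CYFIP1 (0.07) and HERC2 (0.03) were not called, and NDN and MAGEL2 were near background and not called. NIPA2 was higher by 0.42 (adjusted p = 0.0425), a call lost in 9 of 19 alternative settings. Of the 75 other box C/D snoRNAs 1 rose and 6 fell, among them SNORD43 (-0.73) and SNORD83B (-0.45), and of 61 box H/ACA snoRNAs 2 rose, among them SNORA3B (0.92), and 1 fell. SNORD14E rose by 1.09. Most snoRNAs lie in introns of other genes, so their rows and those of their hosts may not be independent.

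**Figure D3:**
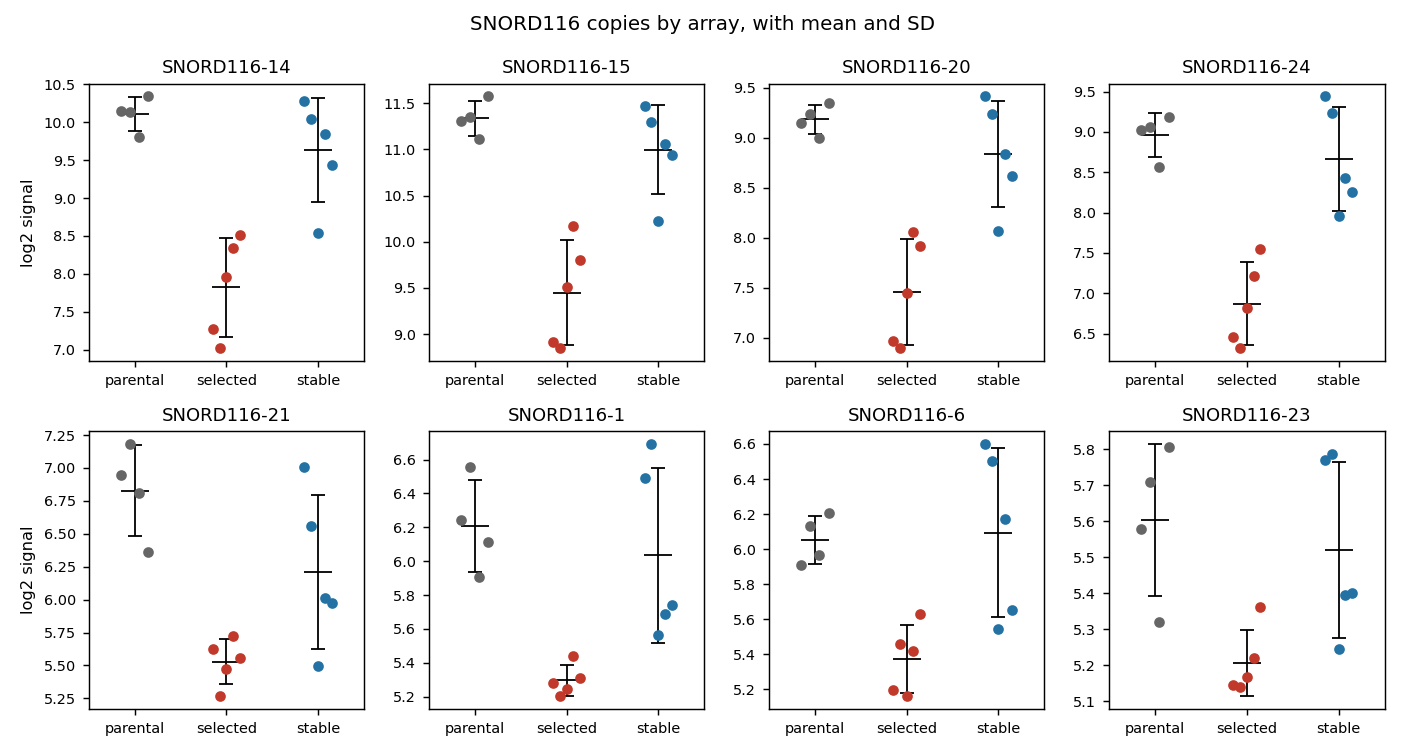
Log2 signal of the 8 called SNORD116 copies on the parental (grey), selected (red) and stable (blue) arrays, with mean and SD as black bars. The 4 copies of the upper row lie above background, and their selected arrays all lie below the parental ones. The stable arrays lie closer to the parental range. Each panel has its own vertical scale.

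The largest rise was that of another noncoding RNA. MIR31HG, the host transcript of miR-31, measured 8.54, 9.02, 8.82 and 8.75 in parental and 10.25, 11.08, 9.61, 10.63 and 10.64 in selected arrays. All 5 selected arrays were higher, with subline 3 the highest and subline 5 the lowest (difference 1.66, SE 0.23, adjusted p = 0.00266). IFNE is an epithelial interferon whose gene lies within the span of MIR31HG on chromosome 9 in RefSeq. It measured 5.62, 5.94, 5.75 and 5.81 in parental and 7.0, 8.36, 6.41, 7.32 and 6.88 in selected arrays, with the same highest and lowest subline. Its parental and selected means, 5.78 and 7.19, both lay near background, and its call as higher was lost in 3 of 18 alternative settings. Overlapping genes may share signal. The hairpin row of MIR31, which also lies in that span, differed by 0.30 (adjusted p = 0.59) and was not called. In stable arrays MIR31HG was 10.60 in subline 1 and between 8.50 and 9.57 in the others.

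Interferon-stimulated genes rose in part. Of 45 measured 7 rose and 0 fell (15.6%), with a median of 0.15, and 23 lay near background. IFI44L measured 7.03, 6.91, 7.48 and 6.76 in parental and 8.50, 7.90, 7.50, 8.34 and 8.49 in selected arrays, so that subline 5 was barely above parental replicate 3 (difference 1.10, SE 0.21, adjusted p = 0.0102). SAMD9, IFI6, PARP12 and PLSCR1 rose by 0.95, 0.63, 0.42 and 0.66. TLR3, the endosomal sensor of double-stranded RNA, rose by 0.94 (SE 0.10, adjusted p = 0.000935), and the interferon receptor chain IFNAR1 by 0.39. Of 17 genes of MHC class I presentation MICA alone was called, at 0.56 in its brighter row and with a difference of 0.19 in the other.

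Of 19 genes of the interleukin 6 family 4 rose and 0 fell (21.1%). The transcription factor STAT3 measured 10.39, 10.59, 10.36 and 10.50 in parental and 11.12, 11.12, 10.75, 10.93 and 10.96 in selected arrays, a rise of 0.52 (SE 0.09, adjusted p = 0.00791). Its activating kinase JAK2 rose by 0.41, the receptor LIFR by 0.49 and the feedback inhibitor SOCS2 by 0.49, the last near background. Without parental replicate 1 or 3, or the selected array of subline 3 or 7, 1 gene of the list was called. In the NF-kB list 4 of 35 rose and 2 fell, TNFAIP2 (1.0), ICAM1 (0.74), CSF1 (0.39) and BIRC2 (0.46) against TNF (-0.57, near background) and CXCL8 (-0.69). With single arrays left out 1 to 5 genes of this list were called higher (1 without parental replicate 4 or the selected array of subline 7, 2 without parental replicate 1 or 3) and 0 to 2 lower (0 without parental replicate 4, 1 if subline 3 or 5 was left out). The groups of BIRC2 and CXCL8 overlapped, and their calls were lost in 9 and 7 of 19 alternative settings.

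Complement and coagulation genes had calls both ways, 6 higher and 2 lower of 25 (24% and 8%). The membrane inhibitors of complement CD46 and CD59 rose by 0.42 and 0.43 and the soluble inhibitor CFI by 0.49, the last near background. PLAU, the urokinase that activates plasminogen, measured 9.86, 9.65, 9.35 and 9.57 in parental and 10.99, 10.27, 10.24, 10.74 and 11.17 in selected arrays, a rise of 1.07 (SE 0.19). The thrombin receptor F2R measured 10.35, 9.85, 10.00 and 9.67 in parental and 9.40, 9.08, 8.46, 8.58 and 8.91 in selected arrays, a difference of -1.08 (SE 0.19). Neither pair of groups overlapped.

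At the cell surface and in the matrix the changes were in single members rather than whole families. The collagen receptor ITGA2 measured 7.64, 7.50, 7.41 and 7.44 in parental and 8.63, 8.67, 8.21, 8.37 and 8.59 in selected arrays, a rise of 0.99 (SE 0.10, adjusted p = 0.000823), and the laminin receptor ITGA6 rose by 0.50. These were the 2 calls among 29 integrins. Of 12 laminins and nidogens the nidogen NID2 and the laminin chain LAMA1 rose, by 1.64 and 0.69. The desmosomal cadherins DSG2 and DSC2 rose by 0.63 and 0.51, and the tetraspanin CD82 by 0.99. Of the other tetraspanins TSPAN1 (-0.65), TSPAN18 (-0.53) and TSPAN31 (-0.49) fell. Of 28 semaphorins and plexins 3 fell and 0 rose (10.7% called lower), SEMA4A (-0.56), SEMA3C (-0.79) and SEMA3B (-0.30, near background). Of 44 collagens 1 fell, of 26 matrix metalloproteinases and their inhibitors 1 rose, and of 15 mucins and 34 protein tyrosine phosphatases none was called. Of 40 genes of the TGF-beta and BMP pathway 2 fell, the latent TGF-beta binding protein LTBP1 (-1.21) and the BMP antagonist GREM1 (-0.49), and TGFB3 was higher by 0.34, near background. The call of GREM1 was lost without parental replicate 1, 3 or 4 or the selected array of subline 1, 6 or 7, with an adjusted p of up to 0.101, and in both fits of all 14 arrays, where it was up to 0.774.

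**Figure D4:**
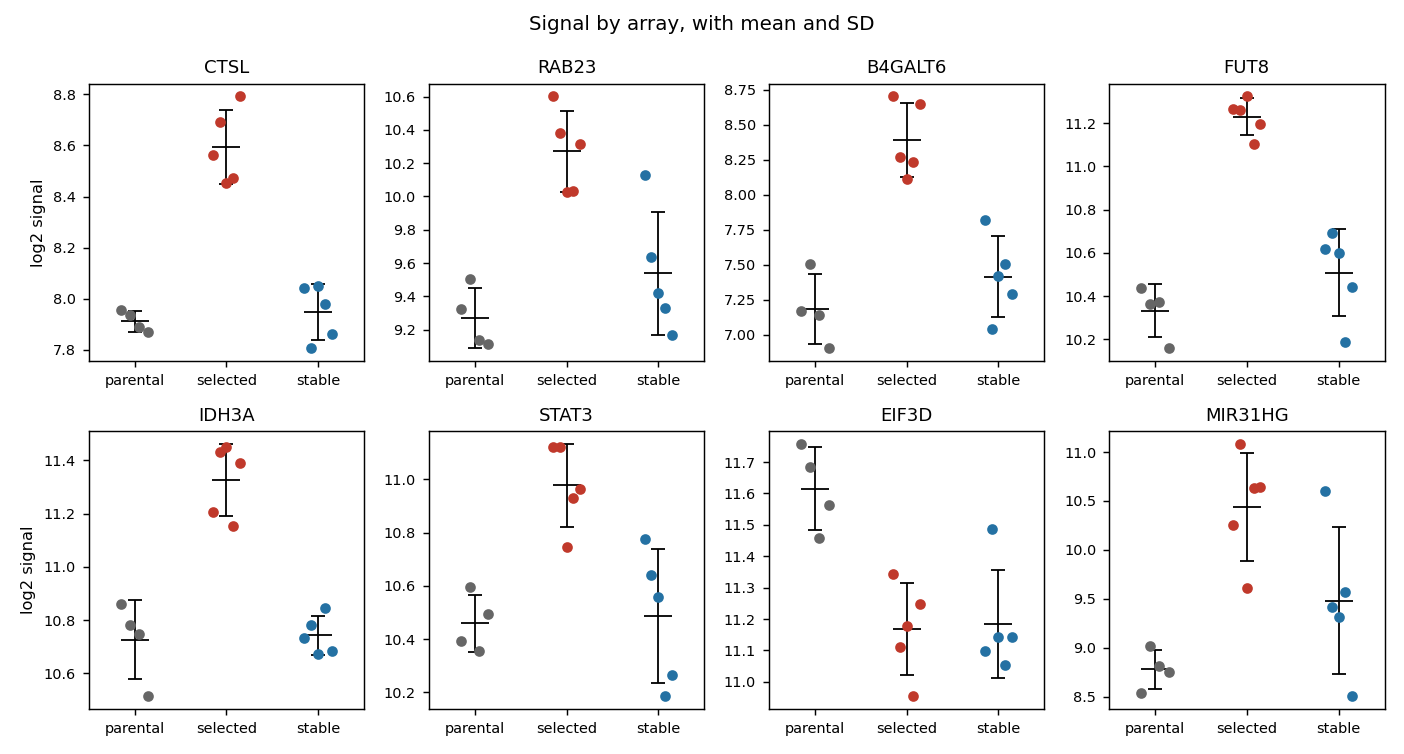
Log2 signal of 8 genes described in the text on the parental (grey), selected (red) and stable (blue) arrays, with mean and SD as black bars. Selected arrays lie above all parental arrays in 7 genes and below them in EIF3D. For EIF3D the stable arrays lie near the selected ones, whereas for CTSL and IDH3A they lie near the parental ones. Each panel has its own vertical scale.

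Zinc finger genes named ZNF, mostly repressors that bind DNA, formed the largest family measured. Of 494 members 42 rose and 2 fell (8.5% and 0.405%), with 330 above 0 and a median of 0.08. Of the 237 on chromosome 19, where many of these genes lie in clusters, 28 rose and 0 fell (11.8%), while of the 1071 other genes of that chromosome 16 rose and 35 fell (1.49% called higher). Of the 257 ZNF genes elsewhere 14 rose and 2 fell (5.45%). Among those that rose were ZNF184 (0.69), ZNF136 (0.63), ZNF211 (0.54) and ZNF273 (0.62). ZNF251 went the other way, at 8.90, 9.0, 8.81 and 8.88 in parental and 8.08, 7.74, 8.13, 7.94 and 8.01 in selected arrays, a difference of -0.92 (SE 0.09, adjusted p = 0.000806). With single arrays left out, the count of ZNF genes called higher ranged from 12 (without parental replicate 4) to 60 (without the selected array of subline 6). Of 38 nuclear receptors 4 rose and 2 fell, with the clock-linked receptor RORA at 1.14 and the thyroid hormone receptor THRB at -0.56. With single arrays left out 1 to 2 of them were called higher and 1 to 2 lower. THRB lost its call in both fits of all 14 arrays.

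Called genes were spread unevenly over the chromosomes, which was looked at after values were seen. On chromosome 22, 1 of 423 genes was called higher (0.236%) and 32 lower (7.57%). Chromosome 18 showed the reverse, with 29 of 264 genes higher and 0 lower. Chromosomes 4 and 14 had 10.6% and 10.1% of their genes called higher. On chromosome 22 the genes called lower included NIPSNAP1, which measured 11.12, 11.20, 11.24 and 11.15 in parental and 10.43, 10.14, 10.18, 10.45 and 10.47 in selected arrays (difference -0.84, SE 0.09, adjusted p = 0.000823), ADSL of purine synthesis (-0.80) and the mitochondrial import receptor TOMM22 (-0.73). EIF3D, EIF3L, MGAT3, SREBF2, SNORD43 and SNORD83B, described above with their families, lie on chromosome 22 too. B4GALT6, KDSR, NPC1, DSG2, DSC2, LAMA1 and RAB27B lie on chromosome 18. The median gene above background of chromosome 22 lay at -0.07, -0.03, -0.09, -0.14 and -0.20 in selected sublines 1, 3, 5, 6 and 7, at -0.01, 0.04, -0.10 and 0.04 in parental replicates 1 to 4, and between -0.13 and -0.09 in the stable arrays. That of chromosome 18 lay at 0.35, 0.16, 0.10, 0.06 and 0.29 in the selected arrays, at 0.04, 0.11, -0.13 and -0.0023 in the parental arrays and between -0.02 and 0.24 in the stable ones. On both chromosomes the parental and selected arrays overlapped.

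**Figure D5:**
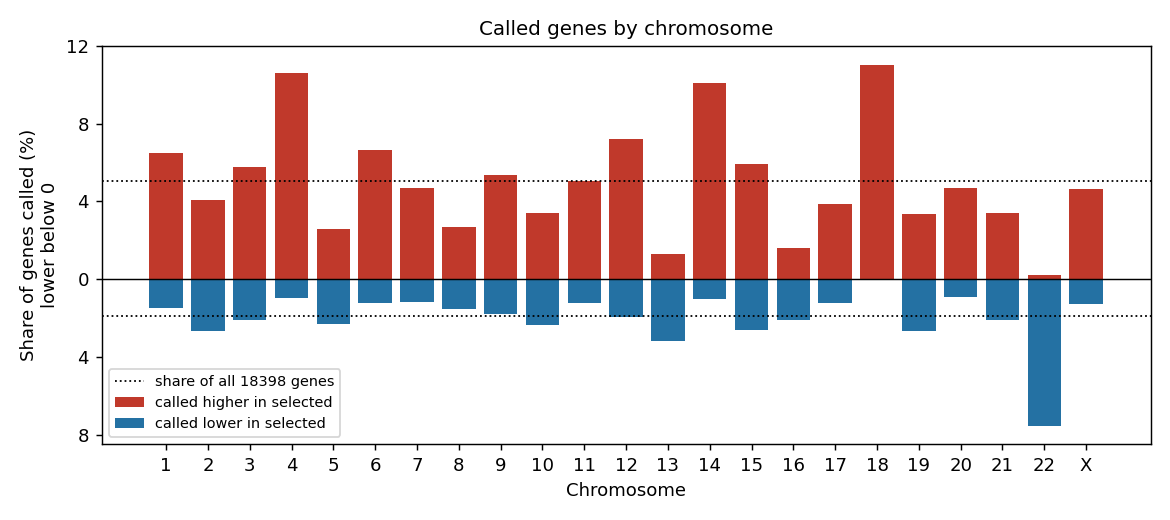
Share of the genes of each chromosome called higher (red, above 0) or lower (blue, below 0) in selected against parental cells. Dotted lines are the shares over all genes, 5.03% and 1.89%. Chromosomes 18, 4 and 14 have the tallest bars above 0, and chromosome 22 has the longest bar below it.

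Within the called genes the sublines differed in the size of their changes. Each single subline differed from the parental mean in the direction of the group in 1272 or 1273 of the 1273 called genes. Because the genes were called from these same arrays, that count is nearly fixed in advance. It does not show that the sublines moved together. The median of genes called higher was 0.55, 0.51, 0.37, 0.38 and 0.60 in sublines 1, 3, 5, 6 and 7, and that of genes called lower was -0.39, -0.49, -0.45, -0.53 and -0.44. Sublines 5 and 6, with the smaller rises, had the highest olfactory receptor means of the selected arrays, 6.50 and 6.61.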

How the data were processed

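Total RNA of parental and resistant OVCAR-3 cells was hybridised with a biotin label to Affymetrix whole-transcript arrays, per the labels. The values are deposited as log2 signal; the labels name no scale, and base 2 was taken from their range, 4.34 to 14.9. How signals were corrected for background, normalized and summarised is not given in the sources used here. Their effect on the differences is unknown. Of 32295 table rows the platform annotation names 1 gene for 19148 and several for 1376, and the other 11771 were not used. Gene IDs were looked up in RefSeq (GRCh38.p14) for current symbols, with a match for 19118 of the 19148 rows. For the 633 genes with several rows, that of highest mean signal was taken. The array's genome build is not stated, so RefSeq positions served only to place genes on chromosomes, to order neighbours and to read promoters.

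Samples were grouped by their labels. Differences were tested two-sided with lmFit and eBayes of limma 3.58.1 (R 4.3.3), without covariates, and p-values were adjusted by Benjamini-Hochberg over 18398 genes. The fits were tested on simulated data: the test against parental arrays found 52% of genes altered by 0.5 log2 and 90% of those altered by 1, and the test against stable arrays found 56% and 96%. Only 50 genes were altered at each size, far fewer than the 1273 called against parental arrays. The shares found need not hold for the real data. Selected and stable arrays of a subline are paired by the labels; the correlation of their deviations from the group means was 0.64, 0.05, 0.37, 0.55 and -0.47 for sublines 1, 3, 5, 6 and 7. Members and lists were chosen with earlier results of these data known. Genes named are CCNE1, CDK2, some of the largest changes and, for many lists, up to 8 called members by smallest p. The brightest member of some lists and the lineage markers are named too. So are a few members needed to account for a list, which were chosen after their values were seen. The highest differences of the hyaluronan and proteoglycan list (1.46) and of the WNT list (1.15) belong to genes that are not named. Alternatives were another variance prior, median centring, quantile normalization, array weights, averaging the rows of each gene, leaving out genes under the 40th percentile of signal, a fit of all 14 arrays without or with a random subline block, a covariate for the olfactory receptor mean, a log2 difference of at least 1, subline as a block for selected against stable, and each array left out. Figures were drawn with matplotlib.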

Additional observations from a re-analysis of the deposited data

Results flagged for a closer look

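Among the genes named above, 22 single values stood apart from the rest of their group by Dixon's test, in 444 groups looked at, each of 1 gene. Chance alone singles out about 1 in 20 groups, so about this many would arise by chance. In each pair of numbers below the first is the outlying log2 signal and the second the nearest signal of the same group. Parental replicate 3 was low in DDB2 (8.64 against 8.91), ICAM1 (8.44 against 8.72), SOX17 (9.34 against 9.74) and WIPI1 (8.86 against 9.07). Parental replicate 4 was low in LIPA (8.80 against 9.14) and ZNF136 (7.35 against 7.59), parental replicate 2 in LUM (4.83 against 4.93), and parental replicate 1 was high in ATP6AP1 (11.42 against 11.09). In the selected arrays subline 7 was high in CERS2 (11.97 against 11.89), DLST (10.75 against 10.63), FNIP2 (9.30 against 8.63) and TLR3 (8.46 against 8.14). Subline 3 was high in ABCB9 (8.25 against 8.08) and LGMN (11.83 against 11.57) and low in ORMDL2 (9.35 against 10.15). Subline 6 was low in ATP6V0A2 (9.52 against 9.79), CCND3 (10.24 against 10.51) and DEGS1 (9.98 against 10.48). Subline 5 was low in CD59 (10.78 against 11.01), SREBF2 (8.42 against 8.91) and ULK2 (8.24 against 8.50), and subline 1 in STX3 (9.77 against 10.01).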

How the results depend on the processing

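For selected against parental, 1273 genes were called, and 964 to 1700 under the alternatives other than a covariate, a minimum difference and left-out arrays. A covariate for the olfactory receptor mean gave 2308, and 44 had a log2 difference of at least 1. Single arrays left out gave 517 to 1343. For selected against stable, where 397 were called, array weights gave 1480, a fit of all 14 arrays 680, subline as a replicate block 906, a log2 difference of at least 1 29, and single arrays left out 86 to 962. The olfactory receptor mean, -0.08 in selected against parental, ranged from -0.17 to 0.02 with single arrays left out, and its sign reversed, to 0.016, without parental replicate 3; leaving arrays out of this mean was chosen after seeing the data. The cause of these shifts was not tested, beyond fewer arrays or a stricter threshold where the setting itself sets them. Of the 200 called genes named above 100 kept their call in every alternative that sets no minimum difference, and 11 lost it in 10 or more, most often PKP2 (14 of 19), RAB11A (12 of 19) and CTSA and GDF15 (11 of 19 each). None of the named genes that were called changed sign. Genes near background have little signal over background, which limits their values.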
